A study of Mus musculus with 9 samples.

Results

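Macrophage and antigen presenting cell genes were followed across 3 kinds of mouse cells. The group holds 46 named genes of macrophages, other myeloid cells and class II antigen presentation, out of 18193 genes on the array. The genes were named by symbol, and where a gene had several probe sets, the one with the largest mean across the 9 arrays stood for it. A probe set is a group of short probes that together read 1 transcript. All 46 were found and all 46 passed the filter on low values.

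Fibroblasts (MEF) were taken from C57BL/6 embryos at embryonic day 13.5, and cardiomyocytes (CM) were isolated from mouse hearts whose age and strain the labels do not give. The third group, chemically induced cardiomyocyte-like cells (CiCM), was made from MEF by exposure to 6 compounds, and beating clusters were picked on day 24. The compounds were CHIR99021 (10 µM), RepSox (10 µM), forskolin (50 µM), VPA (0.5 mM), Parnate (5 µM) and TTNPB (1 µM), and neither MEF nor CM received them. Each group had 3 biological replicates with 1 Affymetrix array each. The labels give no sorting of cells by a surface marker, so that a sample can hold several cell types, and they do not say whether animals were pooled. In such bulk samples, fewer cells of a type and less RNA per cell cannot be told apart.

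Macrophages are phagocytes that live in most tissues, the embryo and the heart included. The transcription factor PU.1 (encoded by Spi1) and signalling through the CSF1 receptor (Csf1r) establish and maintain them, and they clear dying cells, complement-coated particles and antibody-coated particles. Antigen presenting cells cut proteins in their endosomes and show the peptides on class II molecules, which are chains of the H2-A and H2-E type loaded with the help of the invariant chain Cd74.

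The regulatory DNA ahead of some of these genes can be read directly, and a few windows are shown because they hold the short cores of the sites through which PU.1 and the class II promoter factors are known to act. RefSeq start sites of mouse build GRCm38.p6 gave a promoter window of 300 bases, from 250 before to 50 after the start, for 32 of the 46 genes. The core of a PU.1 site was searched as GAGGAAG on either strand (reverse CTTCCTC), and the core of the class II Y box as TGATTGG on either strand (reverse CCAATCA), and the motifs do not overlap each other. The PU.1 core was in the windows of 10 of the 32 genes (31.2%), against 15.4% of 27025 genes and 13.6% of 32851 windows. These 10 were C1qc, Cd53, Clec4d, Ctss, Fcgr1, Fcgr3, Itgam, Laptm5, Mrc1 and Trem2. The Y box core was in 3 of the 32 (9.4%), namely Cd68, H2-Aa and H2-Eb1, against 9.0% of genes and 7.8% of windows. A match describes the letters only.

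Capitals mark the Y box core in the stretches of H2-Aa (chr17:34287824-34287983, minus strand) and H2-Eb1 (chr17:34305707-34305866, plus strand), 160 bases each, 5′ to 3′ along the gene. Its first base lay at -50 from the start in H2-Aa and at -61 in H2-Eb1.
H2-Aa: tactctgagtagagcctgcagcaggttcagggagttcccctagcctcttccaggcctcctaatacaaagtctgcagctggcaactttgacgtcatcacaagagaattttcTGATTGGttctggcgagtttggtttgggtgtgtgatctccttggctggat
H2-Eb1: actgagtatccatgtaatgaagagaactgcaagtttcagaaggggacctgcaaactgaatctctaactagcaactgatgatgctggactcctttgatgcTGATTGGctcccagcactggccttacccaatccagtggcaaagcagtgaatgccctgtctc

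Capitals mark the PU.1 core in 100 bases each of Itgam (chr7:128062540-128062639, plus strand), Fcgr1 (chr3:96293970-96294069, minus strand), Laptm5 (chr4:130913216-130913315, plus strand), Mrc1 (chr2:14229314-14229413, plus strand) and Trem2 (chr17:48346301-48346400, plus strand). Its first base lay at -84, -56, -39, -36 and -41 from the start in that order. The windows of Itgam and Mrc1 held 1 more match each, at 32 and -168, outside the bases shown. These 5 genes are shown because their signals were all lower in CiCM than in MEF while their levels in CM ran from overlap with MEF (Mrc1) to well below it (Trem2). The fall in CiCM did not set them apart, as 36 of the 46 genes were called lower there. Any link between the core and the signals was not tested.
Itgam: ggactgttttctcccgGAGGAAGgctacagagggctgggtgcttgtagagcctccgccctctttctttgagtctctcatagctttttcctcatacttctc
Fcgr1: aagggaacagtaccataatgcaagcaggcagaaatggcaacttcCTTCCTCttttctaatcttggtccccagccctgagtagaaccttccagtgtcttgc
Laptm5: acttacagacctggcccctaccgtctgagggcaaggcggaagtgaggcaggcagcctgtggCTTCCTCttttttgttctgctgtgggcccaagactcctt
Mrc1: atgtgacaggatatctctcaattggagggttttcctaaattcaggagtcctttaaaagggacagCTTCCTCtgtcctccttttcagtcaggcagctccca
Trem2: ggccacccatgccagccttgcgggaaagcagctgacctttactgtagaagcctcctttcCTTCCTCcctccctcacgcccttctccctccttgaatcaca

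Signals are given on the deposited log2 scale, where a step of 1 is a doubling. The table as a whole had a median of 6.58, which served as the line for the filter: a gene was tested if the mean of at least 1 group reached it, and 12559 genes were. Array medians ran from 6.37 to 6.53 in MEF, 6.41 to 6.53 in CiCM and 6.75 to 6.85 in CM. Calls needed 2 things, an adjusted p under 0.05 and a difference of 1 or more on the log2 scale, with limma fitted to all 9 arrays and Benjamini-Hochberg adjustment over all genes tested. The number of arrays limits the precision. As low signals give unsteady log2 values, differences are also given with 32 added to each linear signal for genes with a group under the line. The 3 comparisons share their arrays in pairs and are not independent of each other.

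Markers checked the labelled cell types. All 7 fibroblast markers lay past the line in MEF, with Col1a2 at 14.70, 14.73 and 14.74. All 7 cardiomyocyte markers did so in CM, while 4 of 7 did so in CiCM, where all 7 skeletal muscle markers were past the line. The CM samples also held markers of other cells: all 7 endothelial markers were called higher in CM than in MEF, with summed linear signals of 12146 to 13254 against 475 to 728 in MEF and 211 to 282 in CiCM. Neutrophil markers summed to 2640 to 4832 in CM, 623 to 810 in CiCM and 356 to 460 in MEF, with S100a8 (10.27 to 11.15) and S100a9 (9.99 to 10.91) high in CM. All 5 neutrophil markers tested were called higher in CM than in MEF, as 22.1% of all genes were. Of these, Camp moved from 2.36 to 1.18 without MEF replicate 2. In CiCM against MEF they went both ways: Ltf (4.94, or 2.52 with 32 added) and Camp (3.78, or 2.22) rose and S100a8 fell (-1.56). Erythroid markers summed to 622 to 1861 in CM, 22 to 75 in CiCM and 25 to 48 in MEF, and both tested, Alas2 and Slc4a1, rose in CM against MEF. The other erythroid marker measured stayed under the line on every array. Mast cell markers summed to 528 to 741 in CM, 117 to 275 in CiCM and at most 228 in MEF. Of the 7 measured, 3 had a mean past the line in CM, and all 3 were called higher there than in MEF. The others stayed under the line in every group mean, were not tested, and went both ways between CM and MEF. None of the 5 T cell, 4 B cell or 3 NK cell markers measured reached the line in MEF or CiCM as a group mean, and 1, 1 and 0 did so in CM. Fibroblast markers summed to 94484 to 96615 in MEF, 100899 to 105400 in CiCM and 33037 to 39089 in CM. The part of these other cells in the results was not tested.

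In CiCM, macrophage genes were low. Of the 46 genes, 36 fell in CiCM against MEF and 0 rose, where 12.2% of all genes tested were called lower and 11.6% higher. The other 10 did not pass the test, and at an unadjusted p under 0.05 from limma, whatever the size, 1 was higher (Cd163) and 37 were lower. The median difference over the 46 was -2.59 (-2.25 with 32 added), against -0.03 over all genes. The 3 CiCM arrays lay wholly under the 3 MEF arrays for 38 of the 46 (36.4% of all genes) and wholly above for 3 (32.1%). CiCM had the lowest mean of the 3 groups for 35 of the 46, as it did for 26.8% of all genes.

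Array by array, the median signal of the 46 genes was 9.84, 9.77 and 9.82 in MEF, 6.59, 6.66 and 6.42 in CiCM, and 9.46, 9.27 and 9.25 in CM. The CiCM arrays lay near the median of the whole table, and the MEF and CM arrays well above it. Linear signals of the 46 summed to 76276 to 81075 on MEF arrays, to 18480 to 23262 on CiCM arrays and to 46769 to 63372 on CM arrays. Of the 46 genes, 41 had a mean past the line in MEF, 21 in CiCM and 39 in CM, and 20 in all 3 groups. Another 11 passed in 1 group alone (Spi1, Itgam, Trem2, Clec4e, Acod1 and Arg1 in MEF; Cd163, Ccr2, H2-Aa, H2-Eb1 and Cd74 in CM), so the filter let them in because they differed. The 46 genes had a median SD between replicates that was lowest in MEF (0.09) and highest in CiCM (0.48), with CM at 0.28, against 0.11, 0.16 and 0.24 over all genes.

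**Figure D1:**
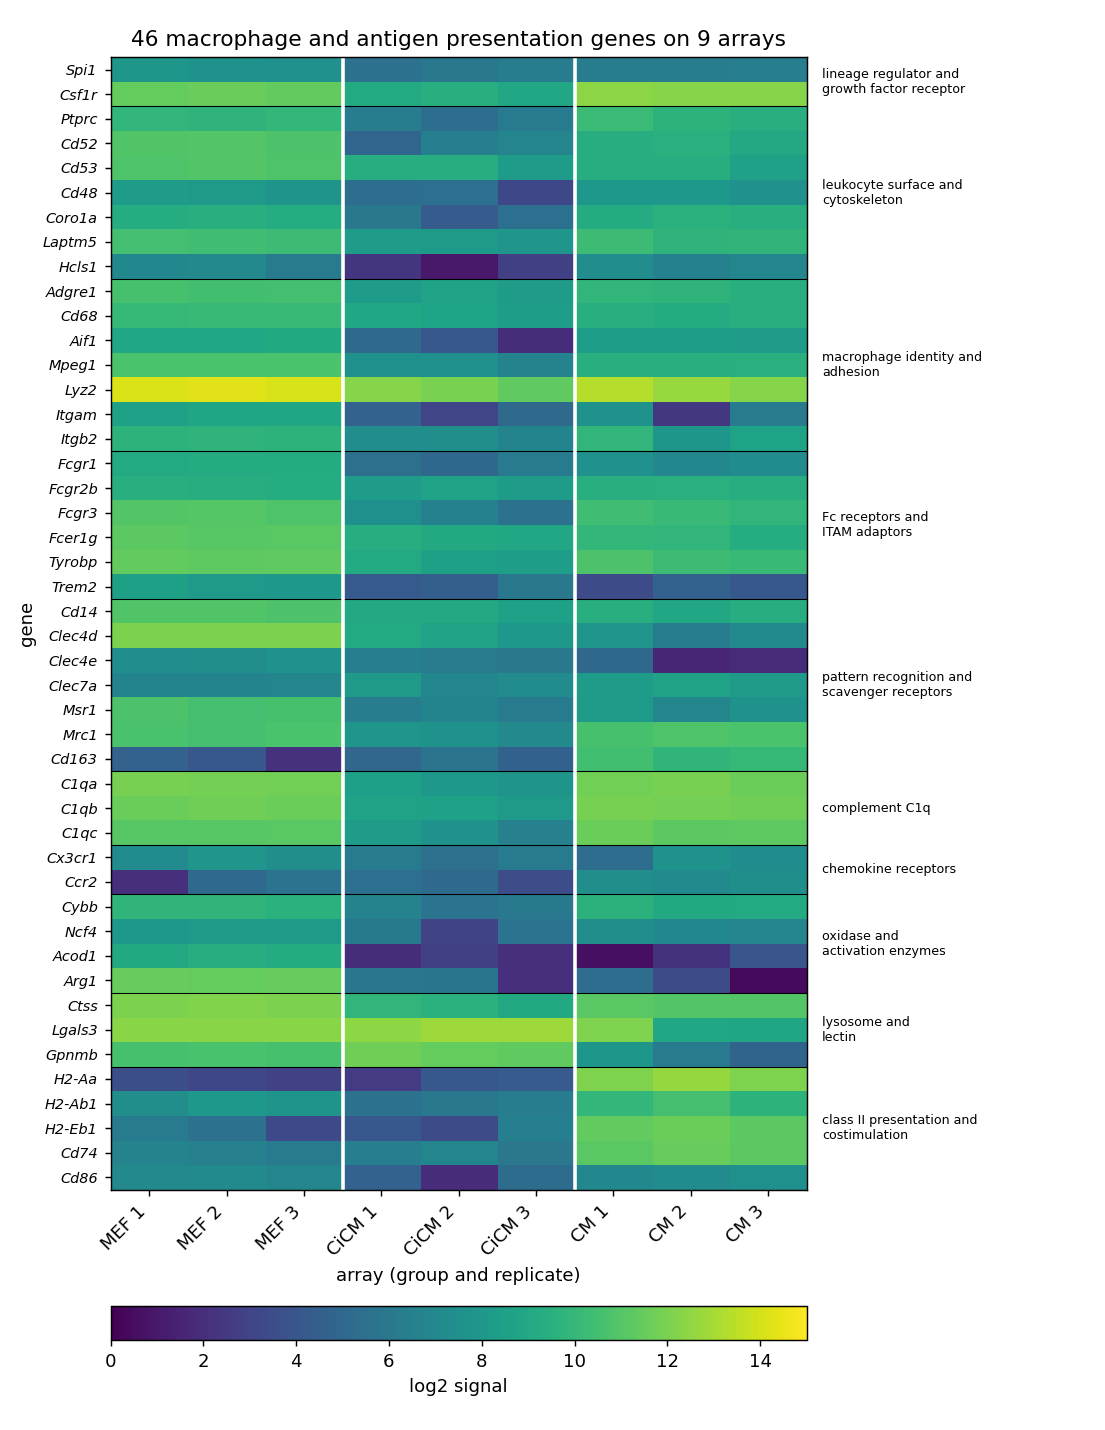
Log2 signal of the 46 genes (rows, ordered by role) on each of the 9 arrays (columns, 3 each of MEF, CiCM and CM), with brighter colour for higher signal. The 3 CiCM columns are darker than the MEF columns for most genes, with medians of 6.42 to 6.66, while H2-Aa, H2-Eb1 and Cd74 are bright in CM alone and Gpnmb in MEF and CiCM.

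CM did not stand in the same relation to MEF. There 7 of the 46 rose (22.1% of all genes did) and 18 fell (21.8%), with a median difference of -0.78 against -0.03 over all genes. The CM arrays lay wholly under the MEF arrays for 24 of the 46 (38.7% of all genes) and wholly above for 9 (36.5%). The share that fell depended on how arrays were scaled: centring them on their medians gave 7 higher and 23 lower, and levelling them on 18 hybridisation control probe sets gave 6 higher and 28 lower. Over all genes the split for CM against MEF was 2779 higher and 2736 lower as deposited, 2094 and 3879 when centred, and 1551 and 5483 when levelled. Levelling moved the median difference of all genes to -0.84 for CM against MEF, -0.26 for CiCM against MEF and 0.55 for CiCM against CM, and centring moved them to -0.40, -0.09 and 0.28. Adgre1, Cd68, Fcgr3, Itgb2 and Tyrobp were called lower in CM than in MEF under both scalings and not as deposited. Aif1, Cx3cr1, Cybb, Laptm5 and Ncf4 were called so with levelling alone.

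Against CM, 30 of the 46 were lower in CiCM (19.0% of all genes were) and 4 were higher (16.5%), with a median difference of -1.81 against -0.03 over all genes. The CiCM arrays lay wholly under the CM arrays for 32 of the 46 (34.4% of all genes) and wholly above for 4 (33.5%). With levelled arrays the counts were 24 lower and 4 higher, while all genes split into 4023 higher and 1377 lower against 2075 and 2387 as deposited. For CiCM against MEF levelling gave 37 of the 46 lower and 0 higher, with all genes at 1132 higher and 2068 lower against 1451 and 1536 as deposited.

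**Figure D2:**
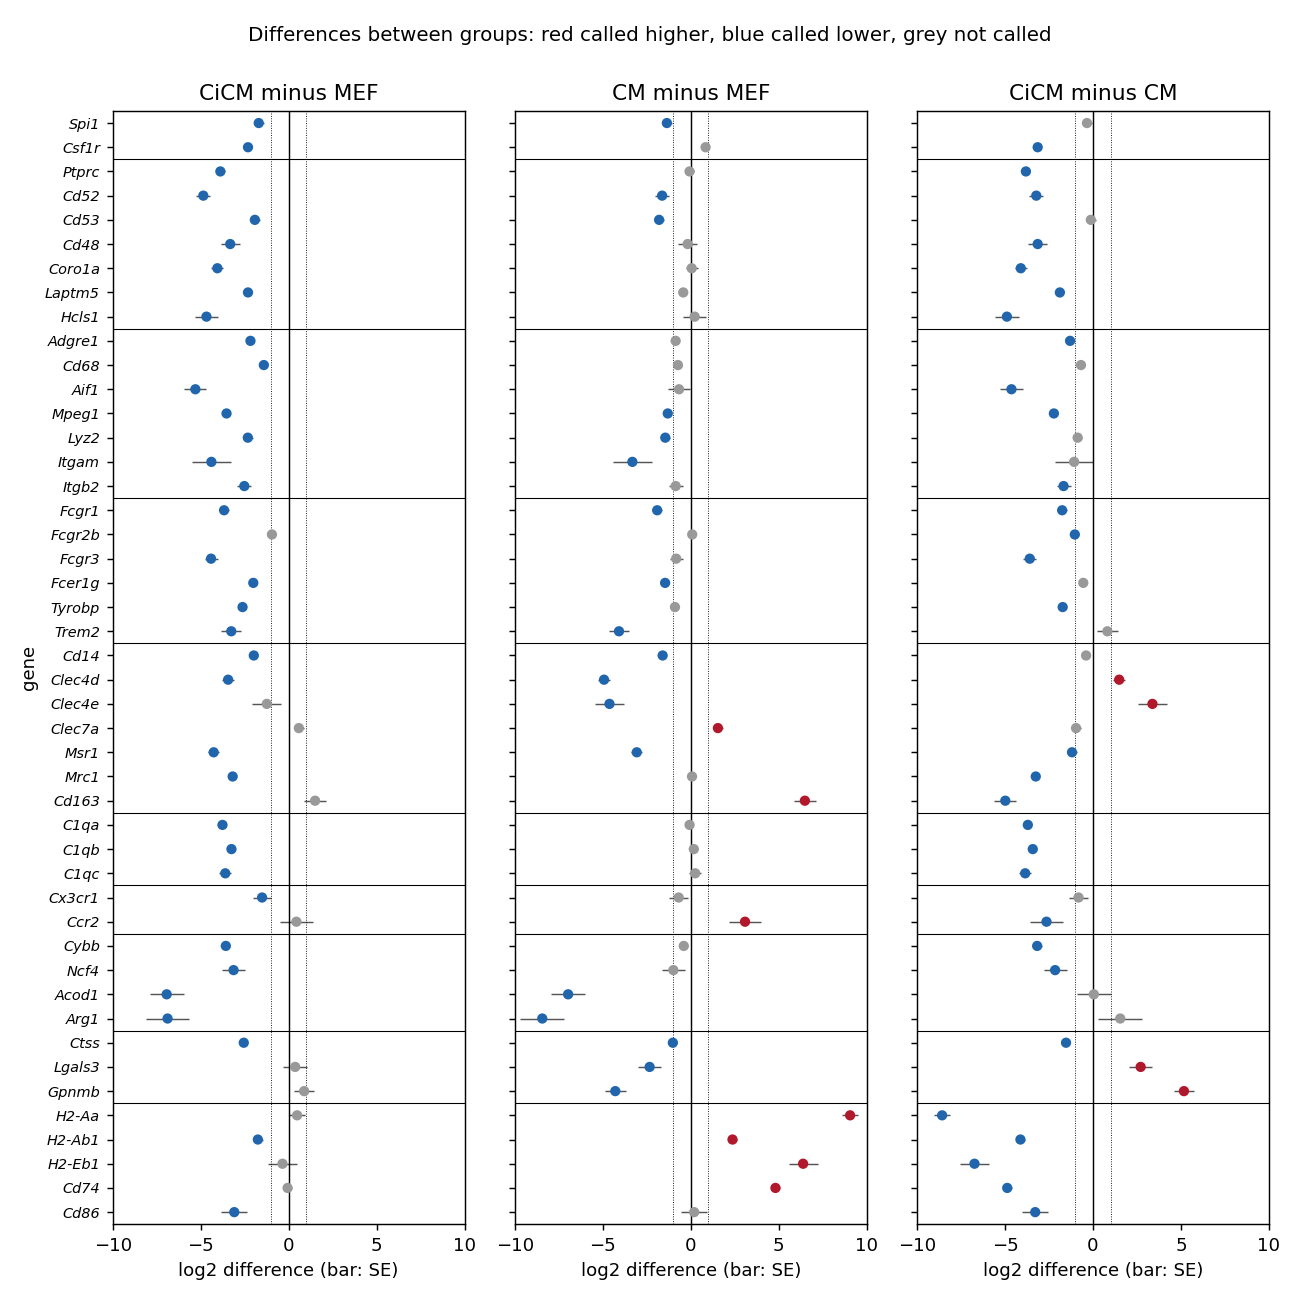
Log2 differences of the 46 genes, by role, for CiCM minus MEF, CM minus MEF and CiCM minus CM. Points are differences and bars their SE, red for called higher, blue for called lower and grey for not called. For CiCM minus MEF 36 points are called and all lie under 0, whereas CM minus MEF spreads from -8.44 (Arg1) to 9.05 (H2-Aa).

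Both lineage regulators fell in CiCM against MEF. Csf1r, the receptor for CSF1 and IL-34, read 11.45, 11.57 and 11.41 in MEF, 9.17, 9.42 and 8.92 in CiCM, and 12.41, 12.25 and 12.27 in CM. The 3 groups did not overlap, with CM highest and CiCM lowest. Csf1r was 4.94-fold lower in CiCM than in MEF (log2 difference -2.31, SE 0.12, adjusted p = 1.57e-07) and 8.82-fold lower than in CM. The difference between CM and MEF, 0.84, was under the size asked of a call, and was 0.03 with levelled arrays. Spi1 read 7.92, 7.62 and 7.56 in MEF, 5.64, 6.01 and 6.35 in CiCM, and 6.28, 6.35 and 6.40 in CM. It was past the line in MEF alone, and fell in CiCM (-1.70, adjusted p = 0.00067; -1.32 with 32 added) and in CM (-1.36, adjusted p = 0.00168; -1.09 with 32 added) against MEF, while CiCM and CM overlapped. Both calls of Spi1 were lost with a larger constant added (-0.80 and -0.69).

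Leukocyte surface and cytoskeleton genes fell in CiCM against MEF in 7 of 7 cases, with differences of -1.92 to -4.85 (-1.85 to -4.26 with 32 added). Ptprc, the leukocyte phosphatase CD45, read 9.89, 9.75 and 9.95 in MEF, 6.35, 5.44 and 6.16 in CiCM, and 10.22, 9.69 and 9.49 in CM. MEF and CM overlapped (difference -0.07, SE 0.25) and every CiCM array lay more than 3 below every array of both. Ptprc was 14.7-fold lower in CiCM than in MEF (10.0-fold with 32 added, adjusted p = 6.56e-07). Coro1a, an actin-binding protein of leukocytes, had the same order, with 9.26, 9.49 and 9.28 in MEF, 6.03, 4.39 and 5.46 in CiCM, and 9.21, 9.56 and 9.42 in CM. The signalling adaptor Hcls1 was low throughout, at 6.10 to 7.07 in MEF and 6.61 to 7.34 in CM, but lower still in CiCM at 1.01 to 2.83 (-1.92 against MEF with 32 added). The calls of Hcls1 in CiCM against MEF and against CM were lost with a larger constant added (-0.83 and -0.93). Cd48, a ligand of the receptor CD244, was 7.77 to 8.22 in MEF, 3.26 to 5.46 in CiCM and 7.57 to 8.01 in CM.

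In this set, Cd52 and Cd53 were lower in CM than in MEF as well. Cd52, a small glycoprotein of the leukocyte surface, read 10.92 ± 0.08 (SD, n = 3) in MEF, 4.90, 6.46 and 6.85 in CiCM, and 9.32, 9.51 and 9.05 in CM. The groups did not overlap, and Cd52 was 3.10-fold lower in CM than in MEF (adjusted p = 0.00375). The tetraspanin Cd53 was also lower in CM than in MEF (-1.80, adjusted p = 0.000227), and there CiCM, at 8.26 to 9.35, overlapped CM, at 8.59 to 9.37. The Cd53 calls against MEF were lost when both of its probe sets were averaged, 1 of which lay under the line, and so was the call of Ptprc for CiCM against MEF. The lysosomal membrane protein Laptm5 read 10.27 to 10.52 in MEF, 7.82 to 8.24 in CiCM and 9.77 to 10.28 in CM, and all its probe sets past the line had 1 sign where it was called.

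Macrophage identity and adhesion genes fell in CiCM against MEF in 7 of 7 cases and against CM in 4 of 7. Adgre1, which encodes the F4/80 antigen, read 10.64, 10.45 and 10.54 in MEF, 8.24, 8.65 and 8.25 in CiCM, and 9.90, 9.75 and 9.39 in CM. Each CiCM array lay under each CM array and each CM array under each MEF array. Adgre1 was 4.49-fold lower in CiCM than in MEF (adjusted p = 1.58e-06) and 2.47-fold lower than in CM (adjusted p = 3.88e-05); the second difference, -1.30, was -0.99 with arrays centred and -0.73 with arrays levelled, under the size asked. Mpeg1, a pore-forming protein of phagocytes, had the same order at 10.73 to 10.78, 6.69 to 7.51 and 9.40 to 9.52 in MEF, CiCM and CM, and all 3 differences were called. Aif1, an actin-binding protein of macrophages, read 8.92, 9.01 and 9.12 in MEF, 5.17, 4.06 and 1.94 in CiCM, and 8.38, 8.42 and 8.26 in CM. Its CiCM arrays were far apart, and its difference between CiCM and MEF of -5.30 was -3.49 with 32 added.

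Cd68 and Lyz2 stayed high in CiCM. Lyz2, a lysozyme, read 14.21, 14.31 and 14.10 in MEF, 12.29, 11.98 and 11.36 in CiCM, and 13.34, 12.67 and 12.25 in CM. It fell 5.01-fold in CiCM (adjusted p = 4.8e-05) and 2.74-fold in CM (adjusted p = 0.000679) against MEF, and CiCM overlapped CM. The CiCM and CM difference, -0.87, became a call without CiCM replicate 1 (-1.08) or without CM replicate 3 (-1.12). Cd68, a glycoprotein of lysosomes, was 10.03 to 10.11 in MEF, 8.38 to 8.92 in CiCM and 9.21 to 9.45 in CM, with only the CiCM and MEF difference of -1.41 called as deposited.

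Both chains of the integrin Mac-1 fell in CiCM against MEF. Itgb2, the beta chain shared by leukocyte integrins, read 9.70, 9.73 and 9.70 in MEF, 7.36, 7.42 and 6.78 in CiCM, and 9.89, 7.93 and 8.73 in CM. CM replicate 1 lay above every MEF array and CM replicates 2 and 3 below them, and without CM replicate 1 the difference between CM and MEF went from -0.86 to -1.38 and was called. Itgam, the alpha chain, read 8.59, 8.83 and 8.83 in MEF, 4.73, 3.16 and 5.18 in CiCM, and 7.63, 2.42 and 6.24 in CM. CM thus spanned more than 5 log2 units. The call of Itgam for CM against MEF (-3.32, adjusted p = 0.0192; -2.25 with 32 added) moved to -1.81 without CM replicate 2 and was lost without MEF replicate 2, and CiCM was called below CM only in the fit without CM replicate 2 (-2.58, against -1.07 with it, or -0.83 with 32 added).

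Fc receptors bind antibody, and several signal through the ITAM adaptors Fcer1g and Tyrobp. In CiCM 5 of the 6 genes of this kind fell against MEF. Fcgr3, a low affinity receptor, read 10.96, 11.05 and 10.87 in MEF, 7.52, 6.57 and 5.57 in CiCM, and 10.38, 10.13 and 9.90 in CM. Fcgr1, the high affinity receptor, was 9.19 to 9.24 in MEF, 5.01 to 6.11 in CiCM and 7.03 to 7.61 in CM, and its groups did not overlap. Its other probe set past the line read means of 7.01, 3.78 and 6.97 in MEF, CiCM and CM, so that CM minus MEF was -0.05 there against -1.91, and the call of Fcgr1 for CM against MEF was lost when both were averaged (-0.98). The Fcgr1 call for CiCM against CM (-1.75, or -1.25 with 32 added) was lost with a larger constant added (-0.70). The adaptor Tyrobp read 11.30 to 11.37 in MEF, 8.40 to 9.17 in CiCM and 10.19 to 10.79 in CM, a 6.16-fold difference between CiCM and MEF (adjusted p = 2.35e-06). The adaptor Fcer1g read 11.13 to 11.20, 9.01 to 9.36 and 9.31 to 9.94, so that CiCM overlapped CM and both lay under MEF.

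Fcgr2b, the inhibitory Fc receptor, was the gene of this set that did not pass the test for CiCM against MEF (-0.95, adjusted p = 0.000168), and its probe sets disagreed in size. It was called lower there with arrays centred (-1.01) or levelled (-1.18), with probe sets averaged (-2.77) and without CiCM replicate 2 (-1.08). The probe set with the highest mean read 9.30 to 9.39 in MEF, 8.24 to 8.64 in CiCM and 9.33 to 9.50 in CM. The other 3 past the line had differences of -4.36, -2.82 and -3.38 for CiCM minus MEF, and of -4.14, -2.53 and -3.51 for CiCM minus CM. All 4 had the same sign, and their CM minus MEF differences ran from -0.28 to 0.13. The call of Fcgr2b for CiCM against CM (-1.03) was lost without CiCM replicate 1 or replicate 3 and with either scaling. Trem2, a lipid and lipoprotein receptor that signals through Tyrobp, was past the line in MEF alone, at 8.51, 8.05 and 7.99 against 4.23, 4.52 and 6.02 in CiCM and 3.47, 4.69 and 4.13 in CM. With 32 added the differences from MEF were -2.32 for CiCM and -2.70 for CM.

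**Figure D3:**
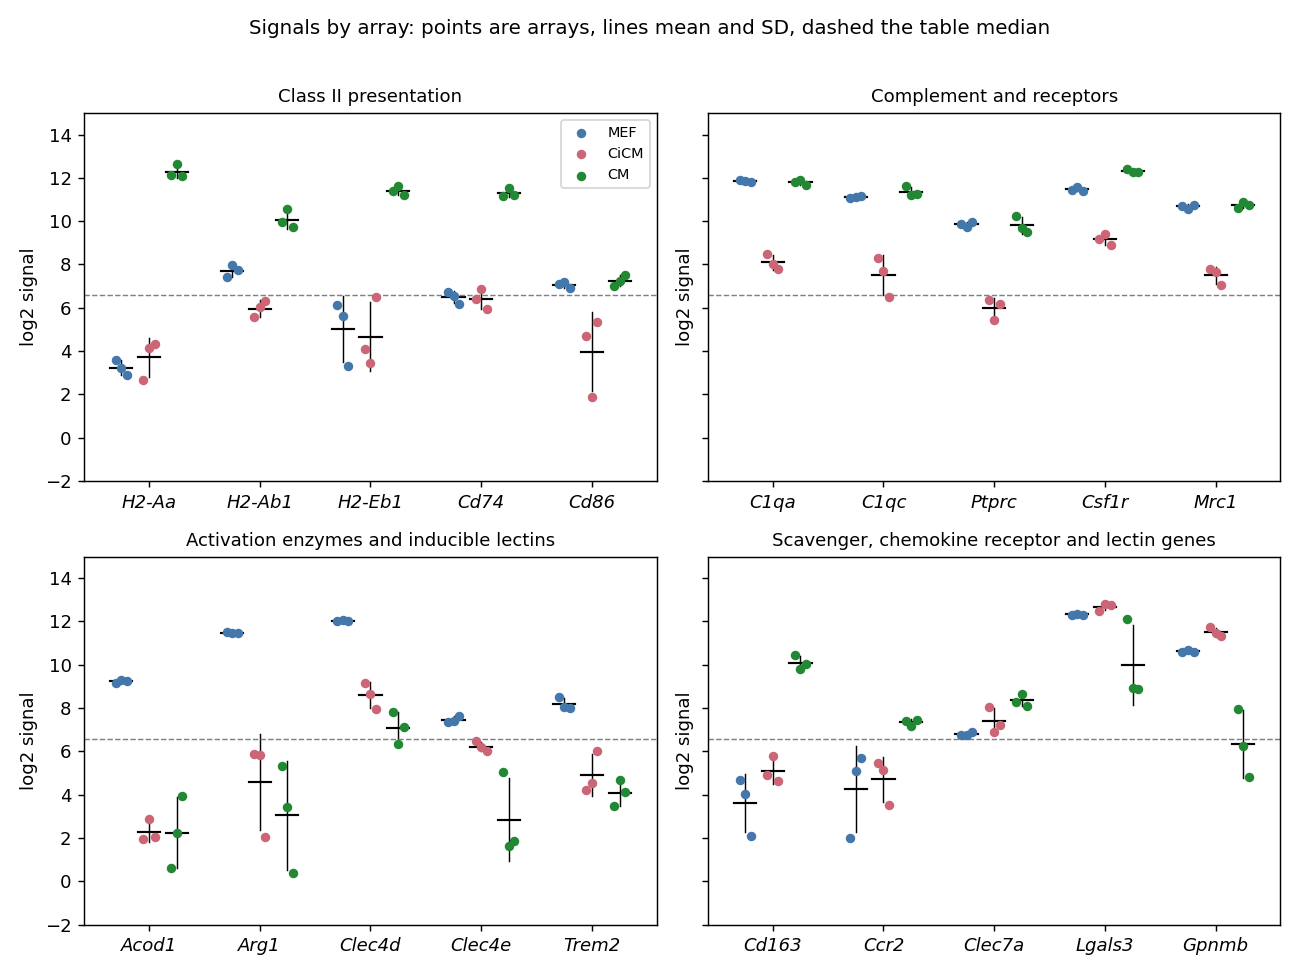
Log2 signals of selected genes on single arrays (points) for MEF, CiCM and CM, with horizontal lines for group means, vertical lines for the SD and a dashed line at the table median of 6.58. C1qa and Ptprc overlap between MEF and CM with CiCM beneath, H2-Aa and Cd163 are high in CM alone, Arg1 and Acod1 are high in MEF alone, and Gpnmb is highest in CiCM.

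The 3 chains of C1q, the recognition part of complement that macrophages make, fell in CiCM against both MEF and CM and were close in the latter groups. C1qa read 11.90, 11.87 and 11.80 in MEF, 8.48, 8.02 and 7.78 in CiCM, and 11.79, 11.92 and 11.65 in CM. C1qb read 11.62 to 11.77 in MEF, 8.09 to 8.62 in CiCM and 11.75 to 11.94 in CM, and C1qc read 11.08 to 11.16, 6.52 to 8.31 and 11.23 to 11.61. For C1qa, C1qb and C1qc in turn, CM minus MEF was -0.07, 0.17 and 0.25 with SEs of 0.16, 0.14 and 0.35, and -0.87, -0.64 and -0.56 with levelled arrays, so the sign of the latter pair turned with the scaling and none was called with limma (0 at an unadjusted p under 0.05 as deposited). CiCM was 13.6-fold, 9.52-fold and 12.1-fold lower than MEF, with adjusted p of 2.62e-08, 2.67e-08 and 1.19e-05. Against CM the log2 differences were -3.70, -3.42 and -3.85. CiCM replicate 3 was the lowest array of all for each chain.

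Pattern recognition and scavenger receptors divided by cell type. Mrc1, the mannose receptor, kept to the C1q pattern at 10.70, 10.58 and 10.76 in MEF, 7.81, 7.65 and 7.06 in CiCM, and 10.61, 10.89 and 10.75 in CM. MEF and CM overlapped, and CiCM was 9.05-fold under MEF (adjusted p = 2.28e-07). Cd163, the haemoglobin-haptoglobin receptor, was past the line in CM alone, at 10.46, 9.81 and 10.02 against 4.69, 4.05 and 2.11 in MEF and 4.93, 5.78 and 4.63 in CiCM. MEF and CiCM overlapped, and with 32 added the differences from CM were 24.1-fold for MEF and 16.7-fold for CiCM. The CiCM and MEF difference of Cd163, 0.53 with 32 added, did not pass the test, though it did without MEF replicate 1 (2.03 as deposited). Clec7a, the beta-glucan receptor dectin-1, was 6.77 to 6.90 in MEF, 6.91 to 8.05 in CiCM and 8.12 to 8.65 in CM, and rose in CM against MEF (1.54, adjusted p = 0.000772; 0.73 and no call with levelled arrays).

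The other 4 receptors were highest in MEF. Msr1, the class A scavenger receptor, read 10.79, 10.57 and 10.66 in MEF, 6.37, 6.75 and 6.13 in CiCM, and 8.19, 6.89 and 7.73 in CM. It was 19.1-fold lower in CiCM (14.2-fold with 32 added) and 8.41-fold lower in CM, with adjusted p of 1.1e-06 and 4.58e-06. The CiCM and CM difference of Msr1 (-1.19, or -0.95 with 32 added) was lost without CM replicate 1 and in 6 other alternatives, and 1 of its probe sets past the line read 0.07 there. Cd14, the co-receptor for lipopolysaccharide, fell 3.96-fold in CiCM and 3.02-fold in CM against MEF, and those groups overlapped at means of 8.89 ± 0.27 and 9.28 ± 0.25 (SD, n = 3).

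Clec4d and Clec4e, paired lectins for fungal and mycobacterial glycolipids, were lower in CM than in CiCM on the probe sets used. Clec4d read 12.03, 12.05 and 12.02 in MEF, 9.16, 8.64 and 7.97 in CiCM, and 7.82, 6.36 and 7.11 in CM. The groups did not overlap, and CiCM was 2.81-fold above CM (adjusted p = 0.00365) and 10.9-fold below MEF (adjusted p = 1.87e-05). Clec4e was past the line in MEF alone, at 7.35 to 7.65, with 6.01 to 6.46 in CiCM and 5.05, 1.62 and 1.86 in CM. CM replicate 1 stood apart there. Clec4e was higher in CiCM than in CM by 3.38 as deposited and by 1.30 with 32 added. The other probe set of Clec4e, under the line in every group mean, had the opposite sign there (-1.70). Its means were 3.99 in CiCM and 5.69 in CM. For CiCM against MEF, the Clec4e difference (-1.24, adjusted p = 0.233, or -0.97 with 32 added) passed the test without CM replicate 1 and in a fit of those groups alone. With the larger of the constants tried added, neither lectin was called for CiCM against CM.

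Chemokine receptors had low signals. Cx3cr1, the receptor for fractalkine, read 7.21, 7.80 and 7.41 in MEF, 6.17, 5.54 and 6.16 in CiCM, and 5.37, 7.66 and 7.30 in CM. Its fall in CiCM against MEF (-1.51, adjusted p = 0.0352; -1.15 with 32 added) was lost in each of the 6 fits that left out a MEF or CiCM array, with differences of -1.31 to -1.65. Ccr2, the receptor for CCL2 on monocytes, read 2.02, 5.10 and 5.70 in MEF, 5.46, 5.16 and 3.53 in CiCM, and 7.42, 7.19 and 7.47 in CM. It was past the line in CM alone, where it was higher than in MEF (3.08, adjusted p = 0.0123; 1.74 with 32 added; 1.96 without MEF replicate 1). The call of Ccr2 for CiCM against CM (-2.64, adjusted p = 0.0285; -1.69 with 32 added) was lost without CiCM replicate 3 or any CM array. With a larger constant added, Ccr2 was called neither for CM against MEF (0.90) nor for CiCM against CM (-0.89).

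Cybb and Ncf4, a catalytic and a regulatory subunit of the phagocyte NADPH oxidase, were lower in CiCM than in both other groups. Cybb read 9.79, 9.79 and 9.58 in MEF, 6.71, 5.69 and 6.05 in CiCM, and 9.64, 9.12 and 9.19 in CM, and fell 11.8-fold in CiCM against MEF (8.41-fold with 32 added, adjusted p = 1.14e-06). Ncf4 read 7.97 to 8.20 in MEF, 3.06 to 6.09 in CiCM and 6.84 to 7.43 in CM. Its low CiCM replicate 2 carried part of the difference from CM, which was -2.15 with it (-1.28 with 32 added) and -1.20 without. The call of Ncf4 for CiCM against CM was lost with a larger constant added (-0.65).

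The enzymes of macrophage activation, Acod1 and Arg1, were past the line in MEF alone. Acod1, which makes itaconate, read 9.14, 9.32 and 9.23 in MEF, 1.97, 2.86 and 2.07 in CiCM, and 0.62, 2.21 and 3.93 in CM. Arg1, which splits arginine into ornithine and urea, read 11.50, 11.46 and 11.49 in MEF, 5.90, 5.85 and 2.05 in CiCM, and 5.34, 3.42 and 0.37 in CM. In both genes the MEF arrays lay within 0.2 of each other and every other array lay more than 5 below them. With 32 added, Acod1 was 17.0-fold lower in CiCM and 16.3-fold lower in CM, and Arg1 was 43.3-fold and 61.7-fold lower. CiCM and CM overlapped for both.

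The lysosome and lectin genes held the 2 members with their highest mean in CiCM. Lgals3, the lectin galectin-3, read 12.32, 12.34 and 12.31 in MEF, 12.48, 12.81 and 12.78 in CiCM, and 12.12, 8.94 and 8.88 in CM. MEF and CiCM did not overlap but differed by 0.37 only (SE 0.67, adjusted p = 0.678), and CM replicate 1 lay some 3 above the other CM arrays. The SE of 0.67 also held that spread of CM (SD 1.85, against 0.02 in MEF and 0.19 in CiCM). Gpnmb, a transmembrane glycoprotein of lysosomes and melanosomes, read 10.61, 10.67 and 10.61 in MEF, 11.73, 11.47 and 11.31 in CiCM, and 7.95, 6.26 and 4.81 in CM. It was 35.9-fold higher in CiCM than in CM (24.1-fold with 32 added, adjusted p = 2.06e-05). Gpnmb in CiCM was 0.88 above MEF, which was under the size asked and did not pass the test. The SE of 0.58 there also held the spread of CM (SD 1.57, against 0.04 in MEF and 0.21 in CiCM). Ctss, the cathepsin that trims the invariant chain, went the other way, at 12.02 to 12.14 in MEF, 9.11 to 9.88 in CiCM and 10.99 to 11.18 in CM. Ctss was 5.85-fold lower in CiCM than in MEF (adjusted p = 5.95e-07); its call for CM against MEF (-1.02) was lost without MEF replicate 2 or CM replicate 2 or 3.

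All 4 class II genes rose in CM against MEF, and these and the costimulatory gene Cd86 were lower in CiCM than in CM, 5 of 5. H2-Aa, the alpha chain of H2-A, read 3.60, 3.22 and 2.90 in MEF, 2.67, 4.15 and 4.33 in CiCM, and 12.12, 12.64 and 12.10 in CM. H2-Eb1, the beta chain of H2-E, read 6.12, 5.63 and 3.30 in MEF, 4.09, 3.44 and 6.49 in CiCM, and 11.38, 11.61 and 11.20 in CM. Cd74, the invariant chain, read 6.73, 6.54 and 6.18 in MEF, 6.42, 6.87 and 5.96 in CiCM, and 11.15, 11.51 and 11.21 in CM. In these 3 genes MEF and CiCM overlapped around or under the line and every CM array lay more than 4 above them. With 32 added, CM was above MEF 121-fold for H2-Aa, 38.9-fold for H2-Eb1 and 20.8-fold for Cd74, with adjusted p of 3.95e-08, 4.44e-05 and 4.13e-08 on the deposited scale. Leaving out CiCM replicate 1 put the CiCM and MEF difference of H2-Aa at 1.00 and made it a call, with both groups still far under the line.

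H2-Ab1, the beta chain of H2-A, did not have the same pattern on the probe set used. It read 7.40, 7.98 and 7.76 in MEF, 5.57, 6.02 and 6.31 in CiCM, and 9.96, 10.55 and 9.72 in CM. The groups did not overlap, and H2-Ab1 fell in CiCM against MEF (-1.75, adjusted p = 0.000375, or -1.35 with 32 added). That call was lost with a larger constant added (-0.82). Its partner chain H2-Aa, far under the line in both groups, did not pass the test there. The other probe sets of H2-Ab1 read means of 4.63 and 6.26 in MEF, 2.64 and 3.64 in CiCM, and 8.80 and 9.37 in CM. They were thus past the line in CM alone. Cd86, a costimulatory ligand for CD28, overlapped between MEF and CM at means of 7.06 ± 0.14 and 7.25 ± 0.26 (SD, n = 3), and read 4.69, 1.89 and 5.33 in CiCM. Its difference between CiCM and MEF was -3.09 (adjusted p = 0.00559), -2.04 without CiCM replicate 2, and -1.64 with 32 added. The calls of Cd86 in CiCM against MEF and against CM were lost with a larger constant added (-0.80 and -0.90).

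Genes that work with the class II molecules were set beside these, 12 of 13 listed being measured and 9 tested. None was called for CiCM against MEF with limma (2 were higher and 2 lower at an unadjusted p under 0.05), while 2 rose and 4 fell in CM against MEF, where 22.1% of all genes rose and 21.8% fell. H2-DMa, part of the peptide editor of class II, rose in CM (1.66, adjusted p = 0.00107; 0.86 and no call with levelled arrays), at a mean of 8.30 ± 0.39 against 6.63 ± 0.65 (SD, n = 3) in MEF. The endosomal reductase Ifi30 (-1.56) and the protease Lgmn (-1.64), which many cell types make, were lower in CM, and so was the costimulatory ligand Cd80 (-3.39, or -2.28 with 32 added). Ciita, the master regulator of class II genes, stayed under the line in all 3 groups and was not tested, with arrays at 2.27 to 5.94 in MEF, 5.48 to 6.34 in CiCM and 4.41 to 6.83 in CM. Dendritic cell markers were mostly low: Itgax read 6.19 to 6.34 in CM, and only 1 of 6 measured, Zbtb46, had a mean past the line. It did so in every group, at 8.55 to 8.79 in CM, 7.09 to 7.34 in MEF and 6.44 to 6.88 in CiCM.

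Ligands of the member receptors were read in the same samples. Csf1, the growth factor for Csf1r, read 12.22, 12.18 and 12.11 in MEF, 10.25, 9.99 and 10.14 in CiCM, and 10.31, 10.45 and 10.92 in CM, and fell 4.13-fold in CiCM and 3.06-fold in CM (adjusted p = 1.2e-06 and 2.51e-06). Il34, the other ligand of Csf1r, overlapped between groups at 6.04 to 6.99. Ccl2, the ligand of Ccr2, read 13.10 to 13.16 in MEF, 11.61 to 12.06 in CiCM and 6.59 to 7.90 in CM. Cx3cl1, the ligand of Cx3cr1, fell in CiCM against MEF (-2.12, adjusted p = 0.000318; -1.66 with 32 added). Icam1, which Mac-1 binds, read 9.36 to 9.51 in MEF, 10.32 to 10.48 in CiCM and 9.30 to 10.03 in CM, with no difference of 1 or more as deposited (CiCM minus CM was 1.08 with centred and 1.35 with levelled arrays). Apoe, a lipoprotein bound by Trem2, was lower in CiCM than in MEF (-1.07, adjusted p = 0.00869; -0.90 and no call without CiCM replicate 3) and than in CM (-1.89, adjusted p = 0.000165).

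Other macrophage genes, 33 listed, 32 measured and 30 tested, gave 1 higher and 23 lower for CiCM against MEF, with a median of -2.32. Over all genes tested, 11.6% were called higher there and 12.2% lower. The toll-like receptor partner Ly86 read 8.80 to 8.84 in MEF, 4.13 to 5.61 in CiCM and 9.19 to 9.39 in CM. The 1 that rose in CiCM was Lyve1, the hyaluronan receptor of lymphatic endothelium and of some resident macrophages, whose arrays overlapped MEF and whose call was lost in 4 of the 9 fits without an array and with 32 added (0.89). For CM against MEF 4 rose and 13 fell, where 22.1% of all genes rose and 21.8% fell. Those that rose were Lyve1 (5.79, or 3.83 with 32 added), Cd83 (3.61, or 2.51), Timd4 (2.89, or 1.67) and F13a1 (1.81, or 1.77). Those that fell most were the receptor Trem1 (-4.96, or -3.10 with 32 added), the scavenger receptor Marco (-4.40, or -3.44) and the elastase Mmp12 (-4.02, or -3.50). F13a1, a coagulation transglutaminase, read 9.58 to 9.79 in MEF, 5.56 to 7.07 in CiCM and 11.38 to 11.61 in CM.

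Signalling genes shared with other blood cells, 14 of 16 listed being tested, gave 0 higher and 10 lower for CiCM against MEF. At an unadjusted p under 0.05 with limma, 0 were higher there. Over all genes tested, 11.6% were called higher and 12.2% lower. For CM against MEF the counts were 1 higher and 3 lower, where 22.1% of all genes rose and 21.8% fell. The share lower was thus near that of all genes. The actin bundler Lcp1 read 10.63 to 10.69 in MEF, 6.00 to 6.75 in CiCM and 9.73 to 9.85 in CM. The kinase Syk, which ITAM adaptors recruit and which other cells also make, did not pass the test for CiCM against MEF (-0.15, adjusted p = 0.636) and rose in CM (1.63, adjusted p = 0.000161; 0.83 and no call with levelled arrays). Of the 6 myeloid transcription factors tested, Ikzf1 (-3.61, or -1.83 with 32 added) and Irf8 (-2.05, or -1.47) fell in CiCM against MEF, and Runx1 fell in CM against MEF (-4.51, or -3.94 with 32 added) and was higher in CiCM than in CM (4.83, or 4.26), at 5.49 to 6.37 against 10.41 to 10.60 in MEF and 10.74 to 11.01 in CiCM. The oxidase partners Rac2, Ncf1 and Cyba fell against MEF in both other groups, with -2.63, -1.90 and -1.02 in CiCM and -1.98, -1.26 and -1.10 in CM. Cyba, the chain that most cells make, lost its CiCM call without MEF replicate 2, MEF replicate 3 or CiCM replicate 3.

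Lysosomal genes that most cells make served to set the lysosomal members against. None of 14 tested was called for CiCM against MEF with limma (8 were higher and 2 lower at an unadjusted p under 0.05), with differences of -0.47 to 0.77. In CM 3 of the 14 fell against MEF, a share near the 21.8% of all genes, among them the cathepsin Ctsz (3.99-fold) and the cholesterol carrier Npc2 (2.96-fold). The osteoclast protease Ctsk read 11.13 ± 0.11 (SD, n = 3) in MEF, 12.15 to 12.31 in CiCM and 7.94 to 8.77 in CM, an order that Gpnmb shared. Another osteoclast marker, Mmp9, did not share that order, as its highest signals were those of MEF. Mmp9 was called lower than MEF both for CiCM (-3.83) and for CM (-3.57), whose arrays overlapped. Acp5, the acid phosphatase of osteoclasts, was 8.60 to 8.64 in MEF, 7.86 to 8.36 in CiCM and 9.92, 7.01 and 4.43 in CM, with CM replicate 1 highest as in Gpnmb and Lgals3.

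**Figure D4:**
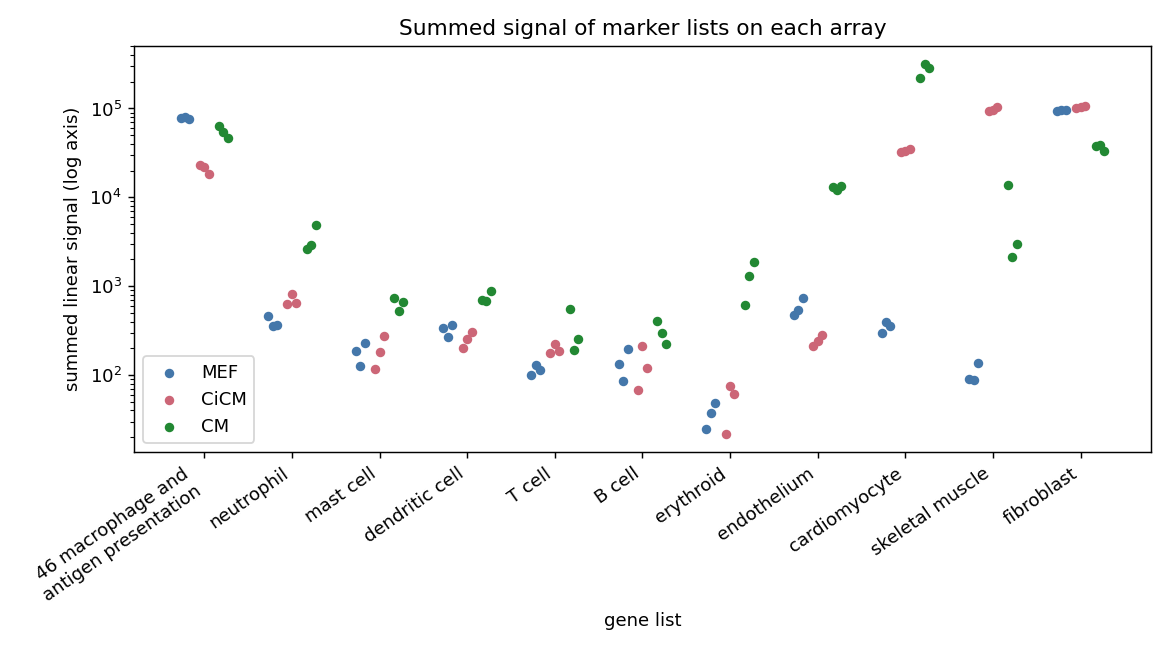
Summed linear signal of the 46 genes and of marker lists of other cell types on each array (points, log axis) for MEF, CiCM and CM. The 46 genes sum to 18480 to 23262 in CiCM, under both other groups, while endothelial, neutrophil and mast cell markers are highest in CM.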

How the data were processed

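Total RNA of 9 samples was measured on 1-colour Affymetrix arrays, 1 a sample, amplified and labelled by a 3′ method, per the labels' protocols. The deposited values are log2 signals of 45101 probe sets; no label gives the scale. The submitters' processing notes name MAS5 with no version. Linear signals had a mean of 500.003 on every array after the highest and lowest 2% were left out, as global scaling leaves it. The genome build behind the table is not given in the sources used here, and batches among the arrays were not analysed here.

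Probe sets were named through the platform annotation of GEO, parts of which may be out of date: 34945 had 1 symbol, 932 several, 9160 none, and 64 were controls. No symbol needed an update. Differences were fitted with limma 3.58.1 under R 4.3.3 (moderated statistics with a trended prior variance, 2-sided, no covariate) over 12559 genes, with 3 groups in 1 fit of all 9 arrays. The deposited values were used unchanged. With 3 arrays a side the smallest p of an exact permutation test is 0.1, hence the reliance on a spread shared across genes. On simulated data for CiCM against MEF with 12559 genes, 69% of genes with a log2 change of 1.5 and 87% of those with 2 were recovered, and 3.7% of calls were false. The simulation changed a small part of the genes and gave each gene 1 spread in all groups. The data differ in both, so these shares do not carry over to the calls reported here.

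The 46 genes and all lists were chosen with earlier results of these data known, so no list is independent evidence. Named genes are the 46, 8 ligands and regulators (Csf1, Il34, Ccl2, Cx3cl1, Icam1, Apoe, Irf8, Ciita), up to 4 called genes of each list by size, and cell type markers. Outside this rule, Acp5, Itgax and Timd4, and Cd83 and F13a1 for CM against MEF, were chosen after their values were seen. Alternatives were 32 or a larger constant added to linear signals, another or no filter, 3 other scalings, averaging the probe sets of a gene, fits of 1 pair of groups, an untrended variance, a block for the replicate number, and fits without 1 array. Of the listed genes without a probe set of a single symbol, none was analysed here.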

Additional observations from a re-analysis of the deposited data

How the results depend on the processing

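Counts of the 46 genes called were recomputed under 11 alternatives and 9 fits without 1 array. For CiCM against MEF the count lower was 35 to 37 and the count higher 0 to 1 without 1 array (1 without MEF replicate 1, where Cd163 passed, and 1 without CiCM replicate 1, where H2-Aa passed). For CM against MEF the counts were 16 to 20 lower and 7 to 7 higher, and for CiCM against CM 28 to 31 lower and 4 to 4 higher. Levelling on hybridisation controls gave 28 lower for CM against MEF, and a larger added constant gave 2 higher and 23 lower for CiCM against CM, without Clec4d and Clec4e among the higher. That constant gave 31 lower for CiCM against MEF, and 5 higher and 16 lower for CM against MEF. Dcn, a fibroblast marker, reversed for CiCM against MEF when its probe sets were averaged (-0.59, against 1.46). With the replicate number as a block the counts higher and lower were 0 and 36, 7 and 18, and 4 and 30, as without it. Same-numbered samples did not deviate together, with correlations of -0.02 to 0.07. Such values cannot show whether the numbers pair the samples.

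The values are limited by 3 arrays a group, by low CiCM signals for which no detection calls were used here, by 1 probe set standing for each gene, and by samples that can hold several cell types.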
